A study of Homo sapiens with 8 samples.

Results

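The mitochondrially encoded transcripts were taken as all genes of the deposited count table whose symbol starts with MT-, which gave 37 of 61228 genes. They comprised 2 ribosomal RNAs, 22 transfer RNAs and 13 messenger RNAs, the full set of genes annotated on the human mitochondrial chromosome. They were counted by RNA sequencing in clones of RPMI-8402, a human T-cell acute lymphoblastic leukaemia line, in which NKX2-1, a homeobox transcription factor gene, was knocked out in a part of the clones. The 4 knockout (KO) clones were C12, C15, S04 and S36, and the 4 wild-type (WT) clones of the same line were WT10, WT13, WT28 and WT30. None of the clones was treated, each clone gave 1 library, and the labels do not give the kind of edit or what the letters C and S stand for. The labels do not say how the clones were grown apart, so p-values measure the spread between clones, part of which may be technical, and with bulk RNA fewer cells of a kind cannot be told apart from less RNA per cell.

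Mitochondrial DNA is a small circle present in many copies per cell. Both strands are transcribed as long precursors that carry ribosomal, messenger and transfer RNAs in a row, and the transfer RNAs between the other genes mark most of the places where the precursor is cut. The mature RNAs then accumulate to different levels because they decay at different rates, and the messages other than MT-ND6 carry a short poly(A) tail. The proteins they encode are subunits of the respiratory chain and of ATP synthase, and the ribosomal and transfer RNAs serve translation by the mitochondrial ribosome.

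The libraries held 2730285 counts in C15, 12344549 to 25423215 counts in the other KO clones and 18453947 to 22916424 counts in the WT clones. A limit of 3 counts corresponded to 1.10 CPM (counts divided by the library total, in parts per 1000000) in C15 and to 0.118 CPM in C12, and these limits cover counting error only. All 11 T-lineage marker genes exceeded 1 CPM in every clone, while 10 of 20 markers of other cell types were at 0 in every clone and 2 of those 20 exceeded 1 CPM in every clone. NKX2-1 itself had 10.3 to 90.3 CPM in KO clones and 51.9 to 60.7 CPM in WT clones, so its RNA level did not separate the groups, and the counts do not show the edit. C15 stands apart by its depth, and the C and S clones differed from each other in 51 of 14243 genes tested, so the values of each clone are given below.

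The 6 transfer RNAs that the results below turn on are shown first, because the genes are so short that the whole RNA fits on a line. MT-TM and MT-TS2 had the smallest p-values of the class between KO and WT clones, MT-TH lies directly before MT-TS2 and had a fold change near 0 on the log2 scale, and MT-TF, MT-TL1 and MT-TP were the most abundant. The sequences are those of the GENCODE release 29 transcripts (GRCh38), 5′ to 3′, with the anticodon in capitals.
MT-TM: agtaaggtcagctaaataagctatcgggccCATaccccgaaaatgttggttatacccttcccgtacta
MT-TS2: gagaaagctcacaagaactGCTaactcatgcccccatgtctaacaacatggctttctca
MT-TH: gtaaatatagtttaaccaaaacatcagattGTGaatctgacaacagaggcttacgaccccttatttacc
MT-TF: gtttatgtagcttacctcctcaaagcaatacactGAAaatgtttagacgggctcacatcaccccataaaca
MT-TL1: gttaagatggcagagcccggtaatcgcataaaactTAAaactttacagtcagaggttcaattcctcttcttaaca
MT-TP: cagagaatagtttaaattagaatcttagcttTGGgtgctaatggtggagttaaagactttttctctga
MT-TM, which carries methionine, lies at chrM:4402-4469 on the plus strand and ends directly before the first base of MT-ND2. MT-TS2, one of the serine transfer RNAs, lies at chrM:12207-12265 on the plus strand, with MT-TH at chrM:12138-12206 before it and MT-TL2 at chrM:12266-12336 after it, with no base between them. MT-TF (phenylalanine) lies at chrM:577-647 and MT-TL1 (leucine) at chrM:3230-3304, both on the plus strand, on the outer sides of the 2 ribosomal RNA genes. MT-TP (proline) lies at chrM:15956-16023 on the minus strand. The anticodon found by a stem and loop search matched the amino acid of the symbol in all 22 transfer RNAs.

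Mitochondrial transcripts took a larger part of the libraries in C15, S04 and S36 than in any WT clone, and the ribosomal RNAs were the class with the clearest shift. Their total share of all counts was 14.85%, 21.22%, 18.49% and 16.79% in KO clones C12, C15, S04 and S36, against 13.09%, 15.1%, 14.05% and 12.87% in WT10, WT13, WT28 and WT30. The groups overlapped because C12 lay below WT13, and the other 3 KO clones lay above every WT clone. The depth made these shares precise to counting error, since the 95% Wilson interval of the shallowest library, C15, ran from 21.18% to 21.27%. KO clones averaged 17.8% ± 2.70 and WT clones 13.8% ± 1.02 (SD, n = 4 each).

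The 3 classes had different patterns over the clones. Ribosomal RNAs took 5.266%, 8.303%, 9.507% and 9.53% of counts in C12, C15, S04 and S36, against 5.452%, 5.322%, 4.639% and 4.249% in the WT clones. C12 lay inside the WT range and the other 3 KO clones above it. Messenger RNAs took 9.392%, 12.67%, 8.825% and 6.919% in KO clones, against 7.433%, 9.597%, 9.263% and 8.428% in WT clones. C15 was the highest and S36 the lowest of all 8 clones, with the WT clones between them. Transfer RNAs took 0.188%, 0.2483%, 0.1563% and 0.3428% in KO clones, against 0.2019%, 0.1778%, 0.1516% and 0.1884% in WT clones, and the groups overlapped.

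**Figure D1:**
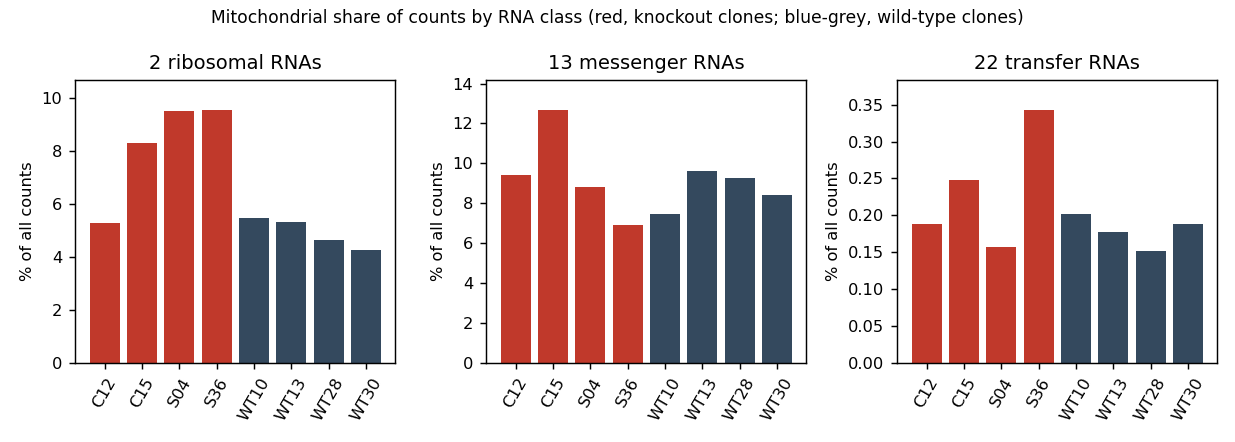
Share of all counts, in %, taken by the mitochondrial ribosomal, messenger and transfer RNAs in each clone, 1 bar per clone, with KO clones in red left of WT clones in blue-grey. Ribosomal RNAs stood at 8.303% to 9.53% in C15, S04 and S36 and at 5.452% or less in C12 and every WT clone, while the messenger RNA bars of the KO clones fell on both sides of the WT bars.

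Counted within the mitochondrial RNAs alone, which leaves nuclear genes out of the denominator, the ratio of ribosomal to messenger RNA counts was 0.5607, 0.6552, 1.077 and 1.377 in C12, C15, S04 and S36, against 0.7335, 0.5546, 0.5008 and 0.5042 in the WT clones. S04 and S36 lay above every other clone, and C12 and C15 lay between WT13 and WT10. Ribosomal RNAs thus made up 51.42% and 56.75% of mitochondrial counts in S04 and S36, against 33.01% to 41.66% in the WT clones. In C12 and C15 they made up 35.47% and 39.12%, inside the WT range.

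Gene by gene, edgeR's quasi-likelihood test on all 14243 genes with enough counts compared KO with WT clones. It covered 30 of the 37 mitochondrial genes, namely both ribosomal RNAs, all 13 messenger RNAs and 15 of 22 transfer RNAs; the 7 others had too few counts. With Benjamini-Hochberg adjustment over all genes tested and a threshold of 0.05, 1 of the 30 was called, MT-TM, which was higher in KO clones, while 0.316% of all genes tested were called, 0.14% higher and 0.176% lower in KO clones. In a check on 1 set of simulated counts, edgeR and the alternatives DESeq2 and limma-voom made more false calls than this threshold allows, DESeq2 the most. That set held no split into C and S clones, and 1 set cannot rank the tools. Calls are therefore to be read as less certain than their adjusted p states. An unadjusted p under 0.05 was reached by 7 of the 30, beside 15.5% of all genes tested. The log2 fold change (KO over WT) was above 0 for 25 and below 0 for 5 of them, with a median of 0.36, beside a median of 0.020 over all genes tested. Levels did not overlap between the groups for 3 of the 30, MT-TM, MT-TY and MT-TS2, all higher in KO clones, and 0 were wholly lower. Over all genes tested 10.1% did not overlap, 4.44% higher and 5.62% lower in KO clones.

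**Figure D2:**
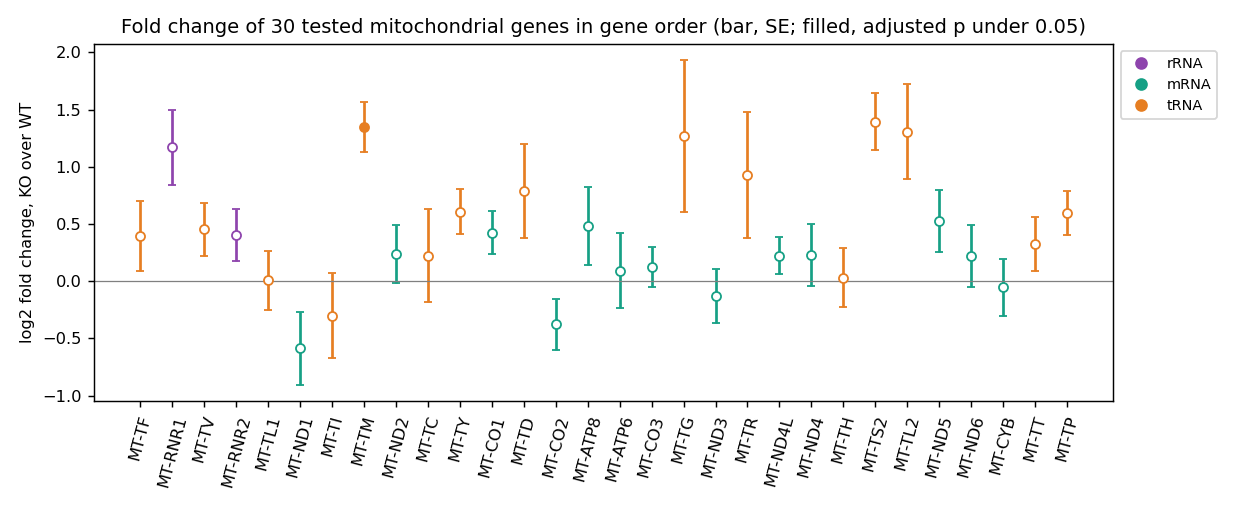
Log2 fold change (KO over WT) from edgeR for the 30 mitochondrial genes tested, in the order of the genes along the chromosome and coloured by class, with bars of 1 standard error; a filled point passed the adjusted threshold of 0.05. MT-TM at 1.35 is the filled point, MT-TS2 at 1.39 and MT-RNR1 at 1.17 are open, and the messenger RNAs lie between -0.59 and 0.52.

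The ribosomal RNAs differed from each other. MT-RNR1, the RNA of the small subunit of the mitochondrial ribosome (chrM:648-1601, plus strand), had 16301, 26161, 41726 and 51940 normalised CPM in C12, C15, S04 and S36, against 19834, 15057, 12878 and 12755 in WT10, WT13, WT28 and WT30. Normalised CPM are CPM scaled by edgeR's TMM factors. C15, S04 and S36 lay above every WT clone, S36 highest, and C12 lay within the WT range. The log2 fold change reached 1.17 (SE 0.33), with an adjusted p of 0.156 in edgeR, so the difference did not pass the threshold. Of the 8 fits with 1 clone left out, only that without C12 passed (1.39, edgeR adjusted p = 0.0308). Without S36 the fold change fell to 0.89 (edgeR adjusted p = 0.276). Over all 18 other settings the adjusted p ran from 0.00187 to 0.519.

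MT-RNR2, the large-subunit RNA (chrM:1671-3229, plus strand), had 35263, 65201, 46167 and 37790 normalised CPM in C12, C15, S04 and S36, against 33605, 40242, 34940 and 30400 in the WT clones. The groups overlapped, with C15 and S04 above every WT clone, and the change was 0.41 on the log2 scale (SE 0.23), at an edgeR adjusted p of 0.422. Only MT-TV lies between the 2 ribosomal genes, with no spare base on either side. It had 30.9, 30.2, 38.6 and 50.6 normalised CPM in KO clones, against 39.9, 22.6, 23.9 and 24.2 in WT clones, and the groups overlapped.

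The ratio of MT-RNR1 to MT-RNR2 counts, which does not depend on scaling, was 0.4623, 0.4012, 0.9038 and 1.374 in C12, C15, S04 and S36, against 0.5902, 0.3742, 0.3686 and 0.4196 in WT clones. S04 and S36 lay above every other clone, and C12 and C15 lay inside the WT range. The difference between KO and WT clones was not larger than the spread between clones (exact two-sided permutation test, 70 assignments, p = 0.2, adjusted p = 0.4 over 2 tests; the smallest p possible is 0.0286). The mean log2 difference of 0.69 fell to 0.36 without S36. In S36 MT-RNR1 outnumbered MT-RNR2 although its gene is shorter, 954 against 1559 bases.

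**Figure D3:**
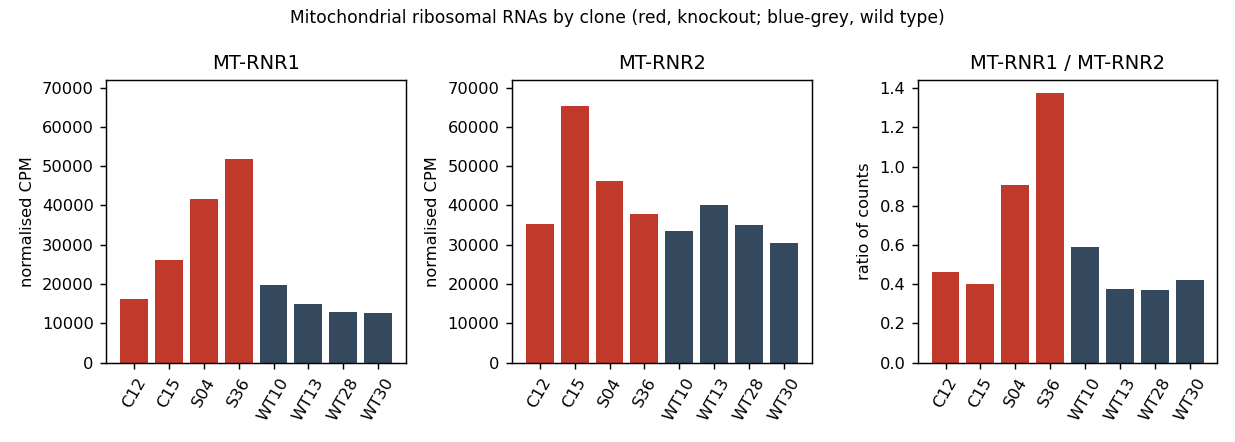
Normalised CPM of MT-RNR1 and MT-RNR2 and the ratio of their counts, 1 bar per clone, KO clones in red left of WT clones in blue-grey. MT-RNR1 was highest in S04 and S36, MT-RNR2 was highest in C15, and the ratio reached 0.9038 and 1.374 in S04 and S36 beside 0.3686 to 0.5902 in the other 6 clones.

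In CPM without TMM scaling, nuclear RNAs of kinds that mostly lack a poly(A) tail followed the order of MT-RNR1 over KO clones. Over the WT clones the orders differed. The scale matters for the histones, since the abundant H4C3 had 4427 normalised CPM in C15 and 4003 in S04. Replication-dependent histone messages summed to 3760, 5500, 6413 and 7720 CPM in C12, C15, S04 and S36, against 3317 to 4547 CPM in WT clones, and 33 of 35 tested had a log2 fold change above 0, with a median of 1.61. Small nucleolar and Cajal body RNAs summed to 290, 518, 902 and 1163 CPM in the same KO clones, against 255 to 325 CPM in WT clones, with 62 of 71 above 0 and a median of 0.94. edgeR called 0 genes of either list, with 25 of the 35 histone genes and 29 of the 71 small RNAs at an unadjusted p under 0.05, beside 15.5% of all genes tested. DESeq2 called 16 and 12 of them, beside 3.66% of all genes, and limma-voom 0 of each, beside 0.66%. The histone genes with the smallest p were H2BC5 at a log2 fold change of 1.75 (edgeR adjusted p = 0.0575) and H2BC14 at 2.42 (edgeR adjusted p = 0.101), and the small nucleolar RNAs were SNORA61 at 1.75 (edgeR adjusted p = 0.0885) and SNORD68 at 1.58 (edgeR adjusted p = 0.0961). The part that this shift in RNA kinds has in the ribosomal and transfer RNA values was not tested. How messenger RNA was selected for the libraries is not given in the sources used here.

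Transfer RNA counts differed widely between genes. MT-TF, MT-TL1 and MT-TP together held 78.72% to 90.65% of the class's counts in KO clones and 88.51% to 90.68% in WT clones. MT-TQ, MT-TN and MT-TK had 0 counts in every clone, which allows up to 3 counts per library. MT-TA, MT-TS1, MT-TW and MT-TE had too few counts to be tested. The lengths of the transfer RNA genes ran from 59 to 75 bases, a small span beside the range of counts; whether a read came from a finished transfer RNA or from an uncut precursor cannot be told from counts per gene.

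MT-TM had 24.9, 29.02, 34.9 and 44.2 normalised CPM in C12, C15, S04 and S36, against 16.3, 12.4, 10.4 and 13.3 in WT10, WT13, WT28 and WT30. Every KO clone lay above every WT clone, S36 highest. The log2 fold change came to 1.35 ± 0.22 (SE; adjusted p = 0.0379 in edgeR). The fold change stayed between 1.01 and 1.58 under all 18 other settings, with adjusted p between 4.33e-06 and 0.169, and the call was lost when any 1 of 6 clones was left out: the adjusted p was then 0.0754 without S04, 0.0743 without S36, 0.0945 without WT10, 0.163 without WT13, 0.137 without WT28 and 0.169 without WT30. Without C12 it was 0.0147 and without the shallow C15 it was 0.0274.

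MT-TS2 had 41.0, 89.5, 70.8 and 77.7 normalised CPM in C12, C15, S04 and S36, against 36.2, 25.4, 21.2 and 22.6 in WT clones. The groups did not overlap, although C12 stood only just above WT10. The log2 fold change was 1.39 (SE 0.25), and the edgeR adjusted p of 0.0505 fell just short of the threshold; it passed in 7 of 18 other settings, among them the DESeq2 test and the fit without C12 (adjusted p = 0.0104), with adjusted p between 1.03e-05 and 0.236 over the 18.

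The genes on either side of MT-TS2, read from the same strand, differed from each other. MT-TH, the histidine transfer RNA directly before it, had 14.9, 30.2, 24.3 and 16.8 normalised CPM in KO clones, against 20.6, 24.5, 13.8 and 23.7 in WT clones. Those groups overlapped fully, and the log2 fold change reached 0.03 (SE 0.26), with an adjusted p of 0.974 in edgeR. MT-TL2, the leucine transfer RNA directly after it, had 4.31, 3.63, 5.97 and 13.6 normalised CPM in KO clones, against 2.44, 2.46, 2.21 and 4.30 in WT clones. C15 lay below WT30, and the log2 fold change of 1.30 did not pass (SE 0.42, edgeR adjusted p = 0.187).

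MT-TY, the tyrosine transfer RNA on the minus strand, had 45.8, 44.7, 49.6 and 77.9 normalised CPM in C12, C15, S04 and S36, against 40.9, 34.2, 31.0 and 37.6 in WT clones. The groups did not overlap, with S36 far above the rest, and the change was 0.61 on the log2 scale (SE 0.20), at an edgeR adjusted p of 0.192. Its gene shares 1 base with MT-TC, the cysteine transfer RNA. MT-TC had 22.3, 6.45, 38.1 and 40.1 normalised CPM in the KO clones, against 31.2, 21.2, 15.6 and 26.5 in WT clones, so that the KO values fell on both sides of the WT values.

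The abundant transfer RNAs gave no call. MT-TF had 1050, 1874, 590 and 1825 normalised CPM in C12, C15, S04 and S36, against 1026, 1053, 911 and 1063 in WT clones. S04 was the lowest clone and C15 and S36 the highest, so the KO spread exceeded the WT spread on both sides (log2 fold 0.40 with an SE of 0.30; edgeR adjusted p = 0.572). MT-TL1 had 438, 422, 339 and 829.2 normalised CPM in KO clones, against 595, 480, 406 and 537 in WT clones; the fold change was 0.01 on the log2 scale (SE 0.26, edgeR adjusted p = 0.992). MT-TP had 126, 181, 209 and 234 normalised CPM in KO clones, against 131, 133, 100 and 131 in WT clones. All KO clones but C12 lay above every WT clone for MT-TP, and its log2 fold change came to 0.60 ± 0.19 (SE; adjusted p = 0.189 in edgeR).

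Over the 15 transfer RNAs tested, 14 had a log2 fold change above 0 (13 when scaled without mitochondrial genes) and 1, MT-TI, below 0, with a range of -0.30 to 1.39 and a median of 0.60. The ends of that range belong to genes of 20.3 and 69.7 mean normalised CPM in KO clones, while the least abundant tested genes, MT-TD, MT-TG and MT-TR, had standard errors of 0.41 to 0.67. MT-TI, the isoleucine transfer RNA, had 32.5, 11.3, 28.7 and 8.85 normalised CPM in C12, C15, S04 and S36, against 30.9, 29.6, 19.2 and 23.4 in WT clones, with C15 and S36 below every WT clone. MT-TT, the threonine transfer RNA, had 7.13, 8.46, 9.40 and 5.34 in KO clones, against 6.06, 6.70, 6.03 and 5.23 in WT clones, with S36 inside the WT range.

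Transfer RNA genes of the plus strand summed to 1681, 2272, 1242 and 3054 CPM in C12, C15, S04 and S36, against 1812, 1596, 1373 and 1692 CPM in WT clones. Those of the minus strand summed to 199, 211, 321 and 374 CPM in KO clones, against 207, 181, 143 and 193 CPM in WT clones. C15 and S36 were highest on the plus strand, and S04 and S36 on the minus strand. MT-TF and MT-TL1 made up most of each plus-strand sum and MT-TP most of each minus-strand sum. The strand is that of the gene, because whether the counting used strand is not given.

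**Figure D4:**
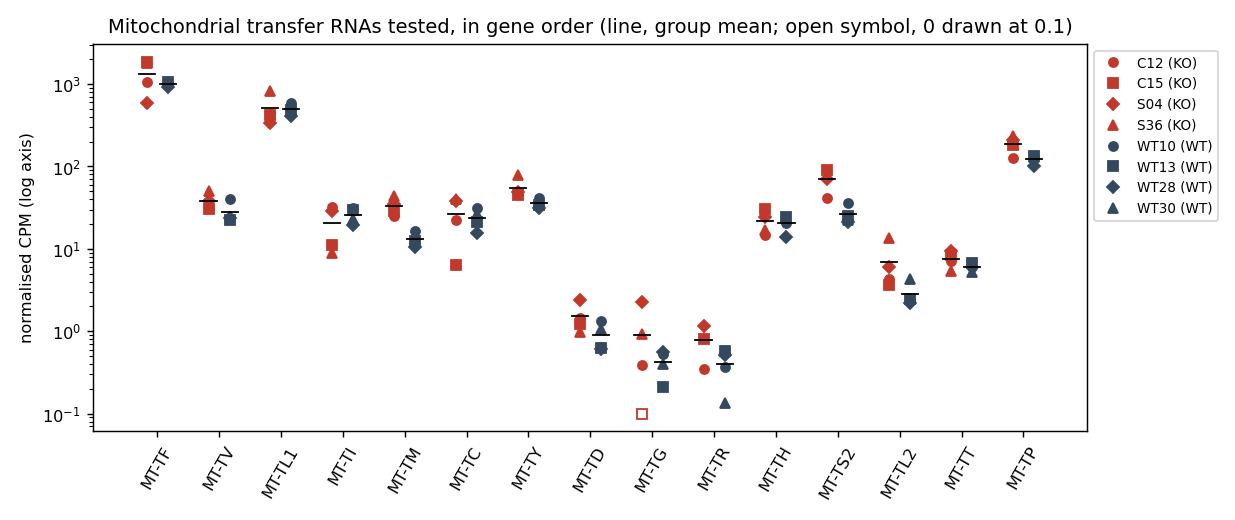
Normalised CPM (log axis) of the 15 transfer RNAs tested, in gene order, with KO clones in red left of WT clones in blue-grey, 1 symbol per clone and a line at the group mean. The groups are apart for MT-TM, MT-TY and MT-TS2, and MT-TG in C15 is an open symbol because it had 0 counts there.

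No messenger RNA passed the threshold between KO and WT clones. edgeR called 0 of 13, with 1 at an unadjusted p under 0.05 (MT-CO1), and 9 had a log2 fold change above 0, with a range of -0.59 to 0.52 and a median of 0.22. The largest 3 were those of MT-ND5, MT-ATP8 and MT-CO1. MT-ND5, a subunit of complex I, had 3320, 7483, 3154 and 3867 normalised CPM in C12, C15, S04 and S36, against 2580, 3579, 2960 and 3266 in WT clones. C15 and S36 lay above every WT clone (KO over WT 0.52 on the log2 scale, SE 0.27; edgeR adjusted p = 0.380).

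MT-ATP8, an ATP synthase subunit, had 8450, 20051, 6894 and 6391 normalised CPM in C12, C15, S04 and S36, against 6865, 9067, 7126 and 6848 in WT clones. C15 alone lay above the WT range, and S36 lay below it. The log2 fold change reached 0.48 (SE 0.34), with an adjusted p of 0.529 in edgeR, and without C15 it turned to -0.05. MT-CO1, the catalytic subunit of cytochrome c oxidase, had 1408, 1972, 2029 and 1244 normalised CPM in KO clones, against 1068, 1356, 1229 and 1307 in WT clones, with S36 inside the WT range (log2 fold 0.42 with an SE of 0.19; edgeR adjusted p = 0.312).

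At the other end stood MT-ND1, MT-CO2 and MT-ND3. MT-ND1, a membrane subunit of complex I, had 4108, 3143, 3185 and 1196 normalised CPM in C12, C15, S04 and S36, against 3104, 5049, 4863 and 4467 in WT clones. S36 lay far below all other clones, and the change was -0.59 on the log2 scale (SE 0.32), at an edgeR adjusted p of 0.408. MT-CO2, which takes up electrons from cytochrome c, had 6198, 3817, 6259 and 3772 normalised CPM in KO clones, against 5349, 7912, 6489 and 6290 in WT clones. C15 and S36 lay below every WT clone, and the log2 fold change came to -0.38 ± 0.22 (SE; adjusted p = 0.446 in edgeR). MT-ND3, another complex I subunit, had 14269, 18082, 10574 and 8968 normalised CPM in KO clones, against 11368, 15258, 16198 and 14028 in WT clones, with C15 highest and S36 lowest (KO over WT -0.13 on the log2 scale, SE 0.24; edgeR adjusted p = 0.831).

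MT-ND6, the only message coded on the minus strand, had 580, 1002, 502 and 346 normalised CPM in C12, C15, S04 and S36, against 458, 593, 490 and 540 in WT clones. C15 was highest and S36 lowest, and the log2 fold change reached 0.22 (SE 0.27), with an adjusted p of 0.740 in edgeR. Its share of the messenger RNA counts was 0.6311%, 0.7185%, 0.6154% and 0.531% in KO clones, against 0.629%, 0.5946%, 0.5131% and 0.6312% in WT clones, and the difference was not larger than the spread between clones (exact two-sided permutation test, p = 0.486, adjusted p = 0.486 over 2 tests). Whether the counting used strand is not given in the sources used here, so reads of MT-ND6 and of RNA from the other strand at the same place cannot be told apart.

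Per kilobase of gene, the messages spanned a wide range of levels. MT-ATP8 averaged 49634 ± 25861 CPM per kilobase in KO clones and 35490 ± 4476 in WT clones, and MT-ND3 averaged 37549 ± 8952 in KO clones and 40324 ± 5063 in WT clones (SD, n = 4 each). These 2 genes exchanged the first and the second place between the groups, within their spread. MT-CO3, a cytochrome c oxidase subunit, took the next place in both groups, with 17847 ± 1584 CPM per kilobase in KO clones and 15958 ± 1061 in WT clones. The lowest message in both groups was MT-CO1, with 1094 ± 255 CPM per kilobase in KO clones and 790 ± 64.3 in WT clones, next to MT-ND6 with 1149 ± 431 in KO clones and 974 ± 93.1 in WT clones. MT-ND3 exceeded MT-CO1 by 34.3 times in KO clones and by 51.0 times in WT clones, although both derive from the same strand.

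These levels depend on where reads could be placed, since copies of mitochondrial genes sit in the nuclear genome. A run of 7 annotated copies on chromosome 1, from MTND1P23 to MTCO3P12, matched the mitochondrial genes at 97.6% to 98.7% of aligned bases. MT-CO1 had the largest share of its 50-base windows, 49.5%, found unchanged in annotated nuclear transcripts, followed by MT-ATP6 with 46.7% and MT-ND2 with 43.6%, while MT-RNR1 and MT-ND3 had 0%. The first 120 bases of MT-CO1 (chrM:5904-6023, plus strand) and of its copy MTCO1P12 (chr1:631074-631193, plus strand), from GENCODE release 29, show how near the copies are, with the 1 base that differs in capitals.
MT-CO1: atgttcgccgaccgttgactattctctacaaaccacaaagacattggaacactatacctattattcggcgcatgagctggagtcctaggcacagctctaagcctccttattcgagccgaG
MTCO1P12: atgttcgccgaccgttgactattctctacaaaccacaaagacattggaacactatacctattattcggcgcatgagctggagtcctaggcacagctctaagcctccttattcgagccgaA
How reads that match more than 1 place were counted is not given in the sources used here, and the levels of MT-CO1, MT-ATP6 and MT-ND2 are therefore uncertain. The copies themselves held between 0.00861% and 1.08% of the counts of gene and copy together.

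Neighbouring messages also share bases. MT-ATP8 and MT-ATP6 are read from 1 message, and the last 46 bases of MT-ATP8 are the first 46 of MT-ATP6 (chrM:8527-8572, plus strand). The shared stretch is shown because reads in it belong to both genes, with the start codon of MT-ATP6 in capitals.
MT-ATP8/MT-ATP6: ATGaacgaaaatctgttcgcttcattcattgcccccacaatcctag
MT-ATP6, the ATP synthase subunit that forms the proton channel, had 9770, 17139, 8222 and 4766 normalised CPM in C12, C15, S04 and S36, against 7285, 9848, 11674 and 8612 in WT clones. C15 was highest and S36 lowest, as for MT-ATP8, and the change was 0.09 on the log2 scale (SE 0.33), at an edgeR adjusted p of 0.928. MT-ND4L and MT-ND4, both complex I subunits, share 7 bases and had log2 fold changes of 0.22 and 0.23.

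The other messages had wide KO ranges around the WT values. MT-ND2, a complex I subunit, had 11678, 18907, 10283 and 8324 normalised CPM in C12, C15, S04 and S36, against 8618, 10922, 12170 and 10014 in WT clones. MT-ND4, the complex I subunit next to MT-ND4L, had 11761, 21137, 10657 and 8867 in KO clones, against 8474, 13572, 11883 and 10841 in WT clones. MT-CYB, the cytochrome b of complex III, had 6831, 7828, 5825 and 3272 in KO clones, against 5346, 7319, 6461 and 5544 in WT clones. C15 was highest of all 8 clones in each of these, and S36 was lowest in MT-ND2 and MT-CYB. MT-CO3 had 12425, 17248, 12661 and 13094 in KO clones, against 11355, 14135, 12741 and 12692 in WT clones, with C15 alone above the WT range.

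The make-up of the messenger RNA pool varied more among KO clones than among WT clones. The root mean square distance between 2 clones in the log2 shares of the 13 messages averaged 0.480 over the 6 KO pairs (0.255 to 0.619) and 0.163 over the 6 WT pairs (0.129 to 0.205), ranges that did not overlap. C12 lay 0.0904 from the WT mean, nearer than any WT clone (0.104 to 0.173), while S04 lay at 0.288, S36 at 0.546 and C15 at 0.604. Pairs share clones, so these distances are given without a test. The 13 messages together had 345989 counts in C15, the shallowest library.

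The departures of C15 and S36 were in part the same and in part different. MT-ND1 made up 4.467%, 2.254%, 3.904% and 1.836% of messenger RNA counts in C12, C15, S04 and S36, against 4.26% to 5.219% in WT clones, and was low in C15 and S36. MT-ND5 made up 3.61%, 5.366%, 3.866% and 5.936% in the KO clones, against 3.101% to 3.815% in WT clones, and was high in the same pair. MT-CO2 was lowest in C15, with 6.739%, 2.738%, 7.672% and 5.789% in the KO clones, against 6.796% to 7.935% in WT clones. MT-CO3 was highest in S36, with 13.51%, 12.37%, 15.52% and 20.1% in the KO clones, against 13.34% to 15.58% in WT clones. S04 departed most at MT-CO1, which made up 2.487% there and 1.287% to 1.527% in WT clones.

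**Figure D5:**
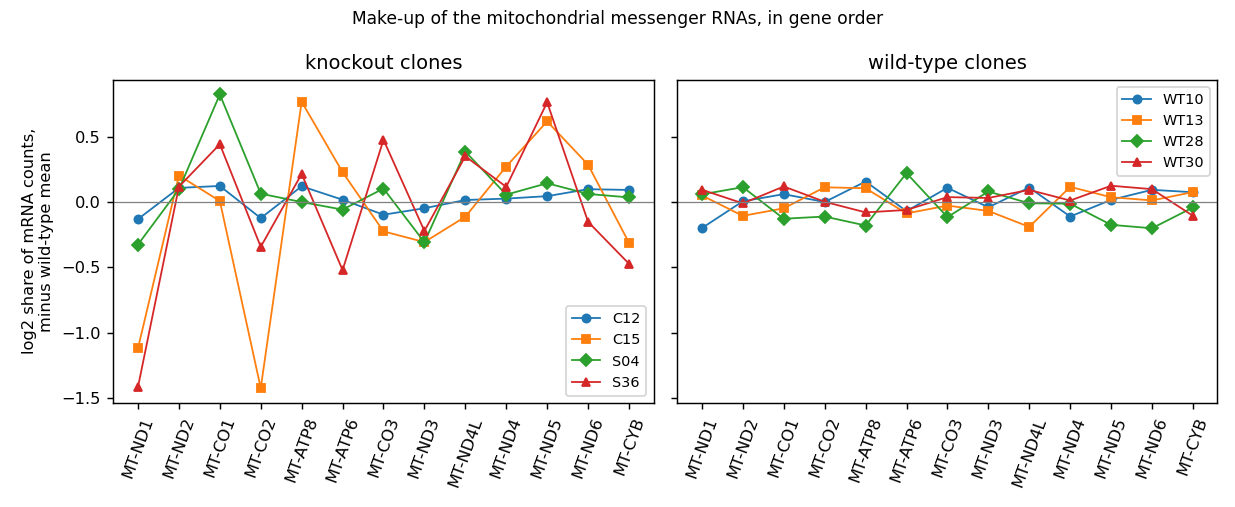
Log2 share of mitochondrial messenger RNA counts for each of the 13 messages, minus the mean of the 4 WT clones, in gene order, with KO clones in the left panel and WT clones in the right. KO values ran from -1.42 (MT-CO2 in C15) to 0.82 (MT-CO1 in S04), WT values from -0.20 to 0.22, and the line of C12 stays near 0.

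The difference between the C and the S clones was then tested within 1 edgeR fit of C, S and WT clones, a comparison of 2 clones with 2. It called 0 of the 30 mitochondrial genes beside 0.358% of all genes tested (0.225% higher and 0.133% lower in C clones). An unadjusted p under 0.05 was reached by 13, beside 17.1% of all genes tested. DESeq2 called 4, beside 4.57% of all genes, and limma-voom 0, beside 0.625%. Messages and transfer RNAs lay mostly on different sides. The log2 fold change (C over S) was above 0 for 12 of 13 messages (13 with DESeq2 size factors, 11 with library totals alone), with a median of 0.72, and below 0 for 11 of 15 transfer RNAs (13 with library totals alone), with a median of -0.49. In the same fit the median over all genes tested was -0.05.

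MT-RNR1 had the smallest p of these, with a log2 fold change (C over S) of -1.14 (SE 0.29, edgeR adjusted p = 0.0991). MT-ATP8 was at 1.10 (SE 0.34, edgeR adjusted p = 0.154) and MT-ND3 at 0.73 (SE 0.21, edgeR adjusted p = 0.141). Both S clones lay above every other clone for 8 of the 30 genes, beside 12.4% of all genes tested. These were MT-RNR1 and the transfer RNAs MT-TM, MT-TC, MT-TY, MT-TG, MT-TR, MT-TL2 and MT-TP. For MT-TG and MT-TR the order against C15 was not resolved at this depth, since C15 had 0 and 2 counts of them, and its limit of 3 counts, 1.10 CPM, exceeds the 0.972 and 0.891 CPM of S36. Both S clones lay below every other clone for 1 of the 30, MT-ND3, beside 11.5% of all genes tested. Histone and small nucleolar RNA sums, in CPM without TMM scaling, were also highest in S04 and S36, as given above. Their part in this difference was not tested. edgeR called 3 of 35 histone genes (H2AC8, H2AC12 and H2AC20) lower in C than in S clones. The same held for 4 of 71 small nucleolar and Cajal body RNAs (SNORD26, SNORD8, SNORA32 and SNORA12), beside 0.133% of all genes tested. These calls were lost when any 1 WT clone was left out, since no gene passed then.

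Set against the 4 WT clones separately, the C and S clones share those WT clones, so the results are given side by side. For MT-TM the log2 fold change was 1.01 in the C clones (edgeR adjusted p = 0.160) and 1.58 in the S clones (edgeR adjusted p = 0.00374). For MT-RNR1 it was 0.47 in the C clones (edgeR adjusted p = 0.519) and 1.62 in the S clones (edgeR adjusted p = 0.00310). For MT-TS2 it was 1.24 in the C clones (edgeR adjusted p = 0.236) and 1.48 in the S clones (edgeR adjusted p = 0.00533). These were separate fits with their own count filter, each with 31 mitochondrial genes. With 2 clones against 4, the spread behind these p-values came mostly from the WT clones. WT clones differed less from each other than S04 from S36, so the p-values of the S clones may be too small. MT-TY, MT-TL2 and MT-TP also passed in the S clones, which makes 6 of 31, beside 14.5% of all 15219 genes tested there. In the C clones 0 of 31 passed, beside 0.0395% of 15180 genes, and 9 of 31 had an unadjusted p under 0.05, beside 10.3% of those genes.

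Nuclear genes that act on mitochondrial RNA and DNA were read from the same fit. edgeR called 0 genes in each of 6 lists, with 1 of 9 transcription genes, 4 of 23 RNA processing genes, 3 of 19 ribosomal RNA modification and assembly genes, 3 of 18 DNA maintenance genes, 4 of 34 transfer RNA modification and charging genes and 13 of 79 mitoribosomal protein genes at an unadjusted p under 0.05, beside 15.5% of all genes tested. DESeq2 called 1 DNA maintenance gene, 4 mitoribosomal protein genes and none of the other 4 lists, and limma-voom called 0 in all 6, beside 3.66% and 0.66% of all genes. The list medians lay between -0.15 and 0.07 on the log2 scale. TFAM, which packages mitochondrial DNA and starts its transcription, had 173, 128, 127 and 131 normalised CPM in C12, C15, S04 and S36, against 174, 168, 201 and 168 in WT clones. C12 alone among the KO clones lay within the WT range for TFAM (log2 fold -0.34 with an SE of 0.15; edgeR adjusted p = 0.295). MTERF4, a mitochondrial ribosome assembly factor of the transcription terminator family, had a log2 fold change of -0.42 (edgeR adjusted p = 0.415).

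Among the RNA processing genes, FASTKD1 and FASTKD2, which bind mitochondrial RNAs, had the smallest p. FASTKD1 had 34.4, 37.9, 22.1 and 34.2 normalised CPM in C12, C15, S04 and S36, against 50.6, 43.1, 48.7 and 49.3 in WT clones, with no overlap (log2 fold change -0.59, edgeR adjusted p = 0.171). FASTKD2 was at -0.54 (edgeR adjusted p = 0.182). TFB1M, which methylates the RNA made from MT-RNR1, had 22.3, 12.5, 15.2 and 12.9 normalised CPM in KO clones, against 23.6, 27.6, 22.2 and 24.1 in WT clones. C12 overlapped the WT values by a small margin, and the log2 fold change came to -0.61 ± 0.21 (SE; adjusted p = 0.201 in edgeR). MTG2, a mitoribosome assembly GTPase, was at -0.48 (edgeR adjusted p = 0.194).

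TOP1MT, the mitochondrial topoisomerase, had 131, 111, 64.4 and 95.5 normalised CPM in C12, C15, S04 and S36, against 142, 167, 168 and 178 in WT clones. Every KO clone lay below every WT clone, S04 lowest, and the log2 fold change of -0.71 did not pass (SE 0.20, edgeR adjusted p = 0.156). MPV17, an inner membrane protein needed to keep mitochondrial DNA, was at -0.43 (edgeR adjusted p = 0.227). The transfer RNA modification genes TRMU and YRDC were at 0.52 and 0.50 (edgeR adjusted p = 0.208 and 0.183). Of the mitoribosomal proteins, MRPL41 of the large subunit was at 0.88 (SE 0.19, edgeR adjusted p = 0.0918) and MRPS9 of the small subunit at -0.59 (SE 0.14, edgeR adjusted p = 0.103).

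Between C and S clones, edgeR called 1 gene of the 6 lists, beside 0.358% of all genes tested. This was MRPS15, a protein of the small mitoribosomal subunit and 1 of 79 mitoribosomal protein genes tested. The call was lost when any 1 WT clone was left out. MRPS15 had 155 and 143 normalised CPM in C12 and C15, against 63.9 and 57.4 in S04 and S36, and 147, 128, 151 and 148 in the WT clones. Both S clones lay below every other clone, and the log2 fold change (C over S) was 1.30 (edgeR adjusted p = 0.0311). An unadjusted p under 0.05 was reached by 18 of 79 mitoribosomal protein genes in that comparison, beside 17.1% of all genes tested. DESeq2 called 7 and limma-voom 1 of the 79, beside 4.57% and 0.625% of all genes.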

How the data were processed

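RNA was sequenced in 8 clones, and the authors deposited 1 table of whole-number counts per gene. Per the submitters' processing notes, reads went through Subread, TopHat2, SAMtools and FastQC on build hg38; the sources used here give no versions, settings, strandedness or rule for reads matching several places. Libraries held 2730285 to 25423215 counts.

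Counts were tested as deposited with edgeR 4.0.16 in R 4.3.3 (quasi-likelihood test, TMM scaling, filterByExpr by KO and WT, Benjamini-Hochberg over all 14243 genes kept, two-sided, threshold 0.05). The spread of C against S came from a fit of C, S and WT clones. Standard errors are the log2 fold change divided by the root of the F value. DESeq2 1.42.0 and limma-voom 3.58.1 were alternatives, with other scalings, other filters, single letters and each clone left out. The tests were checked on 1 set of simulated counts without a split into C and S clones. There, all 3 tools recovered the fold sizes on average and made more false calls than the threshold allows, DESeq2 the most. Pairs of clones in a group differed by far more than sampling noise, so each counted as 1 sample.

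Gene positions and sequences came from GENCODE release 29, which held all 37 genes. Nuclear copies were sought as exact windows of 50 bases in annotated transcripts of other chromosomes, and copies outside annotated transcripts were not searched. Alignments used Biopython 1.88, exact permutation tests SciPy 1.17.1. Permutation tests planned for class sums were not used, since these are sums over chosen genes; their values are described, and p-values are given for the MT-RNR1 to MT-RNR2 ratio and the MT-ND6 share.

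Genes named with values in every clone were both ribosomal RNAs, MT-ND6, those called, the 3 highest and 3 lowest messages by fold change and the 4 most abundant transfer RNAs. From each nuclear list the genes called in a comparison, or else the top 2 by p, are named, some with fold and p alone or by name. MT-TV, MT-TH, MT-TL2, MT-TY, MT-TC, MT-TI, MT-TT, MT-ATP6, MT-ND2, MT-ND4, MT-CYB, MT-CO3, MTND1P23, MTATP6P1 and MRPL34 were added after their values were seen. The members and lists were chosen with earlier results of these data known.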

Additional observations from a re-analysis of the deposited data

Results flagged for a closer look

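In each group of 4 clones, the highest and the lowest log2 value of every mitochondrial gene tested and of the class measures was checked for a gap to its nearest neighbour above Dixon's 95% limit. Of 76 groups, 6 showed such a clone, where chance alone gives about 3.8. Among KO clones, MT-CO3 stood at 14.07 log2 normalised CPM in C15, above the other 3. The log2 ratio of transfer to messenger RNA counts stood at -4.335 in S36, above the other 3. Among WT clones, MT-TV stood at 5.322 log2 normalised CPM in WT10, MT-ATP8 at 13.15 in WT13 and MT-TL2 at 2.142 in WT30. Each of these lay above the other 3 WT clones. MT-TP stood at 6.651 in WT28, below the other 3.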

How the results depend on the processing

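The call of MT-TM and the count of calls depended on the setting. Against 1 of the mitochondrial genes called for KO over WT, DESeq2 size factors gave 2, library totals 0, no low-count filter 4, the DESeq2 test 3, limma-voom 2, a filter on C, S and WT groups (chosen after seeing the data) 2, C clones alone 0, S clones alone 6, and leaving out 1 clone 0 to 4. Over all genes, 45 became 29 with library totals, 581 without a filter, 27 with at least 10 counts in every library, 521 with DESeq2, 94 with limma-voom, 6 with C clones, 2211 with S clones, and 3 to 456 with 1 clone left out. For C over S, the 51 genes became 14 with DESeq2 size factors, 15 with library totals, 762 without a filter, 142 with at least 10 counts, 651 with DESeq2, 89 with limma-voom, 14 with the filter on C, S and WT groups, and 0 to 749 with 1 clone left out; the 0 mitochondrial genes became 10 without a filter, 4 with DESeq2, and 0 to 6 with 1 clone left out. The cause was not tested.

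Signs turned for fold changes that did not pass the threshold with all clones; of these, MT-ND5 for C over S passed without C12 (1.09, edgeR adjusted p = 0.0359). For KO over WT, MT-ND6 was -0.31 with S clones and -0.13 to 0.41 with 1 clone left out; MT-ND3 was 0.17 with C clones and -0.34 to 0.0064 with 1 left out; MT-ATP8 was -0.18 with S clones and -0.052 to 0.65 with 1 left out. MT-TL1 was -0.0097 when scaled without mitochondrial genes, -0.047 without a filter, -0.061 with limma-voom, -0.0091 with the filter on C, S and WT groups, -0.25 with C clones and -0.34 to 0.16 with 1 left out. For C over S, MT-CO2 was 0.0047 with DESeq2 size factors, 0.019 without a filter, 0.0046 with the DESeq2 test, 0.0064 with limma-voom, 0.0029 with the filter on C, S and WT groups and -0.40 to 0.41 with 1 left out, and MT-CO1 was -0.12 with library totals and -0.27 to 0.44 with 1 left out. With 1 left out, MT-RNR2 ran from -0.26 to 0.63, MT-ND5 from -0.090 to 1.09, MT-TF from -0.32 to 1.31, MT-TL1 from -0.95 to 0.34 and MT-TS2 from -0.86 to 0.27. Where a C or S clone was left out, its partner was assumed to vary like the other groups. Library totals moved the median of all genes by -0.136 for C over S. With 1 clone left out, the mean log2 difference (KO minus WT) ran from 0.28 to 0.45 for the total share, 0.61 to 0.90 for ribosomal RNAs, 0.38 to 0.81 for the ribosomal to messenger ratio and 0.36 to 0.95 for MT-RNR1 to MT-RNR2. It ran from 0.12 (without S36) to 0.49 for transfer RNAs and 0.0022 to 0.15 for the MT-ND6 share, and turned sign to -0.056 for messenger RNAs without C15 and to -0.12 for the transfer to messenger ratio without S36.

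No paired analysis was possible because the replicate numbers follow accession order and pair no clones. The shallow C15 limits the transfer RNAs most, where 3 counts equal 1.10 CPM.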

Other observations

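The nuclear copies of mitochondrial genes on chromosome 1 varied between clones as well. MTND1P23, the copy of part of MT-ND1, had 53.0, 7.33, 48.8 and 8.10 CPM in C12, C15, S04 and S36, against 50.1, 49.2, 48.9 and 32.6 CPM in WT10, WT13, WT28 and WT30. C15 and S36 were the lowest for this copy, and they were also the clones with the smallest MT-ND1 share of messenger RNA counts. MRPL34, a nuclear mitoribosomal protein gene that is no such copy, was lowest in C15 and S36 as well. It had 107, 18.1, 105 and 33.7 normalised CPM in C12, C15, S04 and S36, and was picked after its values were seen. How many genes share this pattern was not counted, and a link between these genes was not tested. MTATP6P1, the copy of MT-ATP6, had 97.8, 59.3, 182.5 and 33.5 CPM in the KO clones, against 66.7, 92.0, 105.4 and 78.6 CPM in the WT clones, with S04 highest and S36 lowest. The copies with the smallest p between KO and WT clones were MTCO1P40, at a log2 fold change of 1.60 (edgeR adjusted p = 0.152), and MTATP8P1, at 0.85 (edgeR adjusted p = 0.229). edgeR called 0 of the 15 copies tested between KO and WT clones; 2 had an unadjusted p under 0.05, beside 15.5% of all genes tested, DESeq2 called 1, beside 3.66%, and limma-voom 0, beside 0.66%.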
